A study of Mus musculus with 12 samples.

Results

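The 34 genes followed here are expressed in the G2 phase of the cell cycle and in mitosis. They were chosen by name, and all probe sets annotated to one of them were taken: 71 of the 45101 probe sets of the array, for 33 of the 34 genes. No probe set of the table was annotated to Ccnb1, and no value is given for it. A probe set was tested where its signal was above the array median on at least 2 of the 12 arrays, which left 61 of the 71 probe sets and at least 1 for each of the 33 genes. The 10 that were not tested, annotated to Aurka, Bub1, Cenpa (2 probe sets), Incenp, Kif23, Kif2c, Nek2, Racgap1 and Top2a, had signals between 1.92 and 21.3 on the 12 arrays. Of the 61, 58 were above the median on all 12 arrays; those of Incenp (1439252_at), Kif23 (1453748_a_at) and Ttk (1442594_at) were above it on 7 or 10.

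The study measured RNA of mouse embryonic fibroblasts (MEFs), connective tissue cells that divide in culture, with 1 Affymetrix expression array per sample. It had 6 groups of 2 arrays, which the labels call biological replicates: cells with the solvent DMSO alone, with interferon alpha (IFNa), with interferon gamma (IFNg), with AMN107, with AMN107 and IFNa (AMN107-IFNa), and with AMN107 and IFNg (AMN107-IFNg). Interferon was given for 6 h. AMN107 is the code name of nilotinib, a small-molecule inhibitor of the ABL tyrosine kinase that also acts on the PDGF receptors, KIT and the DDR receptors. The labels state neither a dose nor a duration for AMN107 (their treatment text reads "AMN107 RNA"), nor the mouse strain, the passage, or whether cultures were pooled. All groups shared the same serum-containing medium and no mutation is named. The labels do not say whether replicates came from separate embryos, so p-values measure the spread between these samples only.

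A dividing cell makes the RNAs of these genes late in its cycle. Cyclins A and B switch on the kinase CDK1, whose activity is set by the CDC25 phosphatases and helped by the kinases PLK1 and Aurora A, and the cell enters mitosis. Kinetochore proteins then tie the chromosomes to the spindle, the checkpoint holds back the anaphase-promoting complex until all are attached, and the central spindle and a contractile ring divide the cell. Many of the genes are switched on together by the MuvB complex with B-Myb and FOXM1 at CHR elements and by NF-Y at CCAAT boxes of their promoters, and are shut in resting cells by the DREAM complex. In a culture their RNA is widely read as a measure of dividing cells. In bulk RNA a smaller share of cells in G2 and mitosis and less RNA per such cell cannot be told apart.

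The 250 bases before the transcription start are shown for 4 of the genes, because these short promoters carry the elements through which such genes are known to be switched on together and because the 4 genes moved in different ways. The sequences are RefSeq's, build GRCm38.p6, printed 5′ to 3′ on the strand of the gene, which is the minus strand for all 4. Capitals mark the CCAAT box (CCAAT or its complement ATTGG) and the CHR element (TTTGAA or its complement TTCAAA). Ect2 had lower signals with AMN107 on all arrays, Aurka and Cdc20 had higher signals with AMN107 unless IFNg was given, and Cdk1 differed little. Ect2 lies at chr3:27153855-27154104 (the first of its 2 windows), Aurka at chr2:172370571-172370820, Cdc20 at chr4:118437344-118437593 and Cdk1 at chr10:69352913-69353162.
Ect2: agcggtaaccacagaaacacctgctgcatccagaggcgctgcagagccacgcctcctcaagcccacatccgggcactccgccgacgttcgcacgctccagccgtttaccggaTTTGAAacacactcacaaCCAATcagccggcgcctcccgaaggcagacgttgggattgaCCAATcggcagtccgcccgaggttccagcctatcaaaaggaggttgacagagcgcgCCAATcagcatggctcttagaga
Aurka: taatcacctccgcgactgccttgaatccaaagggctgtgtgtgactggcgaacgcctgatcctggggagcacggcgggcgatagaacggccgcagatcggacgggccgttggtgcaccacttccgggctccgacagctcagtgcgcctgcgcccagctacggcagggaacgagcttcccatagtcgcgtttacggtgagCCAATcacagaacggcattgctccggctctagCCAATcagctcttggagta
Cdc20: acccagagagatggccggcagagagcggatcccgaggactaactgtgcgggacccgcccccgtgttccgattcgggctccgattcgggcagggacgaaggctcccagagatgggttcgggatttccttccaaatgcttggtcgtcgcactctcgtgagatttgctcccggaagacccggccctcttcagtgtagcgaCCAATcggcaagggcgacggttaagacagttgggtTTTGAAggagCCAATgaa
Cdk1: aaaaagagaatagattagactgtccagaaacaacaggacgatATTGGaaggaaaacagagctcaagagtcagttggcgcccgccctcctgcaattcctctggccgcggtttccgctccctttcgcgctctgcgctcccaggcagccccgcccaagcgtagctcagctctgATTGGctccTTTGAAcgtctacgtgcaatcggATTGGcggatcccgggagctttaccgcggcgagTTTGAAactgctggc
The Ect2 window held 3 CCAAT and 1 CHR match, the Cdk1 window 3 and 2, the Cdc20 window 2 and 1, and the Aurka window 2 CCAAT matches and no match to the CHR letters. RefSeq windows were found for 28 of the genes, 30 windows in all, counting both strands. A CCAAT box was in 24 of the 30 (80.0%), against 33.8% of all 32851 windows of this length, and a CHR element in 11 (36.7%), against 16.0%. Both were in 10 windows (33.3%), against 5.55% of all windows. The motifs can share at most 1 letter, at their ends. A match is a description of the letters and no measure of binding.

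The arrays were alike in median signal (20.6 to 22.7) but less so among bright probe sets. The 75th percentile was 80.8 and 82.2 with DMSO, 90.7 and 96.3 with IFNa, 87.8 and 86.2 with IFNg, and 92.0 to 95.7 in the 3 AMN107 groups. A single array stood apart in its control probes. IFNa replicate 2 had a 5′ to 3′ signal ratio of 0.0252 for the Gapdh control probes and 0.212 for actin, where the other 11 arrays had 1.07 to 1.16 and 0.676 to 0.831, so that its control signals were short of 5′ ends. It gave the highest of the 12 signals in 29 of the 61 mitosis probe sets (47.5%, against 27.3% of all probe sets) and the lowest in 8. The standard deviation of the log2 difference between replicates over the 61 probe sets was 0.392 for IFNa and 0.102 to 0.157 for the other 5 groups. A control RNA added to the samples, read by the LysX probe set, had values of 59.6 and 66.2 with DMSO, 81.1 and 45.4 with IFNa, and between 36.1 and 41.4 in the other 4 groups, so that both these groups also differed from the rest in a technical measure. Of the 13 fibroblast markers, 9 were tested and 4 (Fap, Lum, Postn and Thy1) were never above an array median; their summed signal was 9558 to 9686 with DMSO, 10125 to 11674 with IFNa, 10493 to 11021 with IFNg and 7104 to 7361 in the 3 AMN107 groups. S100a4, 1 of these markers, read 4700 to 5235 without AMN107 and 1872.5 to 2255 with it. Against DMSO it alone fell by more than the sum. In the mean of the 3 AMN107 effects given below, 5 of the 9 tested markers were called lower (55.6%, against 21.0% of all genes). Called higher was 1 (11.1%, against 25.2%). The part of this lower fibroblast signal in the results below was not tested. Markers of other cell types were low in sum but not all absent. Never above an array median were 5 of 11 leukocyte genes with a probe set (Ptprc, Adgre1, Itgam, Aif1 and Tyrobp). The same held for 4 of 5 endothelial genes (Pecam1, Cdh5, Cldn5 and Tek) and 3 of 6 epithelial genes (Cdh1, Krt14 and Krt18). Tested were 4 leukocyte, 1 endothelial and 3 epithelial genes, and 3, 1 and 1 of them were above the median on all 12 arrays. The summed signals were 293 to 371 for the leukocyte list, 83.0 to 103.6 for the endothelial list, and for the epithelial list 140.3 to 181 without and 114 to 137 with AMN107.

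Over the 3 states of the cells (no interferon, IFNa and IFNg), AMN107 went with lower signals of more mitosis genes than it raised. Differences are given on the scale of log2(signal + 8.66), which understates changes of dim probe sets, with the standard error of the limma fit to all 12 arrays and a p-value adjusted by Benjamini-Hochberg over all 24363 probe sets tested; called means adjusted p under 0.05. In the mean of the 3 AMN107 effects, which rest on separate arrays, 36 of the 61 probe sets were called (59.0%), against 45.8% of all probe sets. Of these, 26 were lower (42.6%, against 20.0%) and 10 higher (16.4%, against 25.9%). The median difference of the 61 was -0.12, against 0.00261 for all probe sets. By the brightest probe set of each gene, 14 of 33 genes were lower and 3 higher, against 21.0% and 25.2% of 12192 genes. The calls of 26 of the 36 probe sets, 19 lower and 7 higher, held whichever array was left out. Signals were lower in each of the 3 states in 28 of the 61 probe sets (45.9%, against 24.7% of all) and higher in each in 7 (11.5%, against 29.1%), and the AMN107 arrays lay apart from their controls in every state in 16 of the lower and 3 of the higher ones (11.6% and 15.9% of all). Only Ect2 was called lower in all 3 states singly, and no probe set of the 61 was called higher in all 3. Of all 24363 probe sets 592 were called lower and 1213 higher in all 3. In either direction this was 1.64% of the 61, against 7.45% of all.

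**Figure D1:**
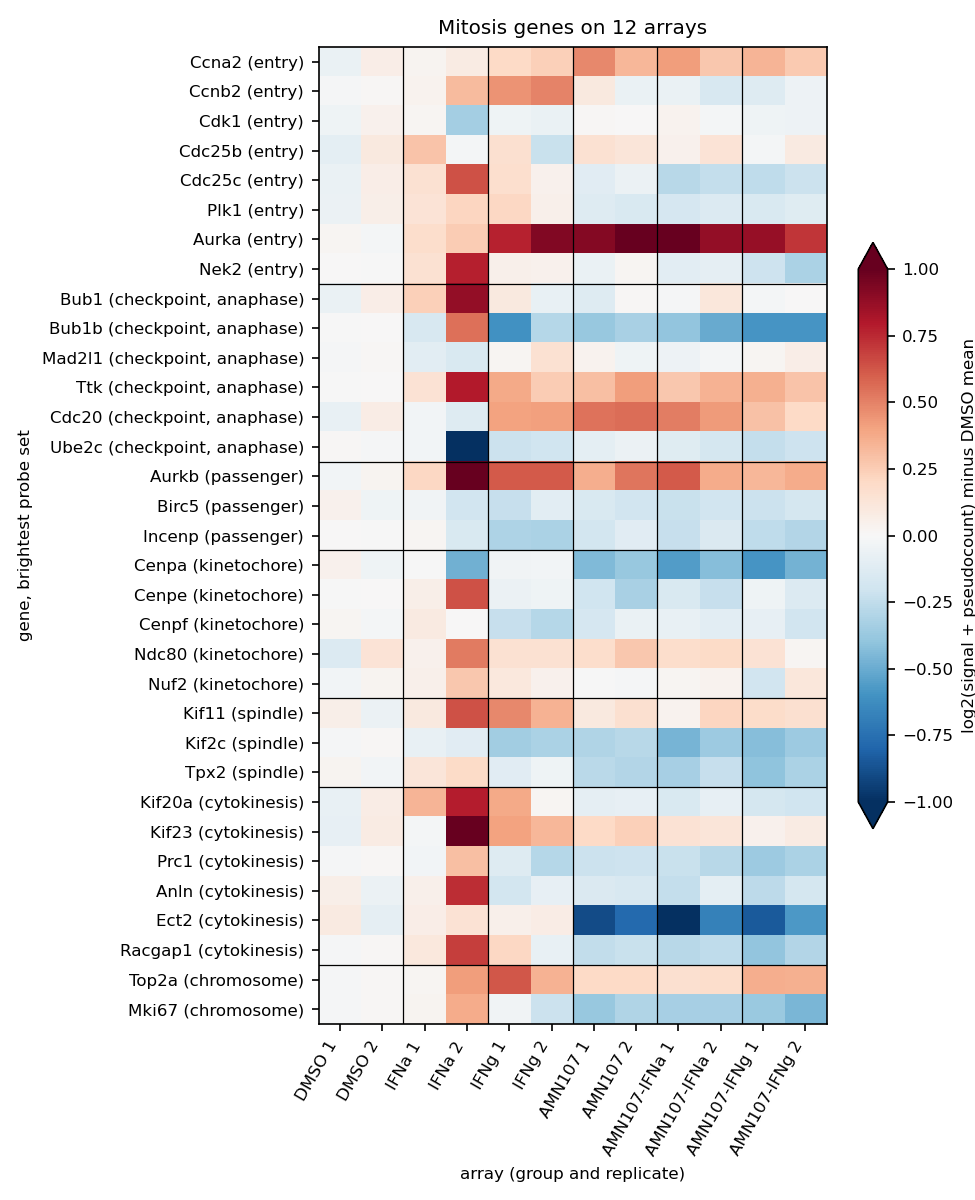
Heat map of the brightest probe set of 33 mitosis genes (rows, grouped by role) on the 12 arrays (columns, in the 6 treatment groups); the colour is log2(signal + 8.66) minus the mean of the 2 DMSO arrays, with values past the ends of the colour bar drawn in the end colour. Ect2 is low on all 6 AMN107 arrays, Aurka is high on these and on the IFNg arrays, and IFNa replicate 2 stands apart from IFNa replicate 1 in many rows.

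Among the cyclins, kinases and phosphatases of mitotic entry, 4 of 8 genes were lower and 2 higher in the mean AMN107 effect. This and the counts of the groups below are of few genes, and stand beside 21.0% lower and 25.2% higher over all genes. The Aurka probe set, for the Aurora A kinase that ripens centrosomes and helps activate PLK1, gave 341 and 330.1 with DMSO, 381 and 402 with IFNa, 577 and 644 with IFNg, 642 and 681 with AMN107, 688 and 623 with AMN107-IFNa, and 619.6 and 555 with AMN107-IFNg. The DMSO and IFNa arrays lay below all other 8, which overlapped each other. Its mean AMN107 effect was 0.55 ± 0.056, adjusted p = 4.46e-05, made up of 0.96 (adjusted p = 0.000125) without interferon, 0.73 (0.000884) with IFNa and -0.055 (0.748) with IFNg, so that the mean joins unlike values. Ccna2, the cyclin A2 of S phase and early mitosis, gave 569 and 623 with DMSO, 607 and 631 with IFNa, 686 and 703 with IFNg, 836 and 751 with AMN107, 800.5 and 718 with AMN107-IFNa, and 756 and 716 with AMN107-IFNg. The DMSO and IFNa arrays were again the 4 lowest, and the mean effect was 0.26 ± 0.053, adjusted p = 0.00299. The other Ccna2 probe set (1417910_at) went the other way, with -0.14 ± 0.051, adjusted p = 0.0411, a call that held without IFNa replicate 1 and IFNa replicate 2 and was lost without any of the other arrays (adjusted p = 0.0516 to 0.109).

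Plk1, the kinase that acts from entry to cytokinesis, gave 505 and 549 with DMSO, 581 and 612 with IFNa, 609.7 and 546 with IFNg, 481 and 473 with AMN107, 469 and 477 with AMN107-IFNa, and 473 and 484 with AMN107-IFNg. All 6 AMN107 arrays were below the other 6. The mean effect was -0.25 ± 0.050, adjusted p = 0.00297. Ccnb2, cyclin B2, gave 476 and 486 with DMSO, 494 and 601 with IFNa, 658 and 682 with IFNg, 515 and 457 with AMN107, 457 and 429.5 with AMN107-IFNa, and 439 and 463 with AMN107-IFNg. The IFNg arrays were the highest pair and stood above both DMSO arrays and all AMN107 arrays. Its mean effect was -0.28 ± 0.062, adjusted p = 0.00437. Cdc25c, the phosphatase that removes the inhibitory phosphates of CDK1, gave 69.2 and 76.4 with DMSO, 81.9 and 118 with IFNa, 82.7 and 75.3 with IFNg, 66.7 and 69.4 with AMN107, 58.3 and 60.5 with AMN107-IFNa, and 59.4 and 61.3 with AMN107-IFNg. The AMN107 arrays overlapped the DMSO arrays, while AMN107-IFNa and AMN107-IFNg lay below their controls. Its mean effect was -0.36 ± 0.079, adjusted p = 0.00435. Nek2, a centrosome kinase, gave 515 and 511 with DMSO, 571 and 884 with IFNa, 533 and 527 with IFNg, 490.3 and 521 with AMN107, 477 and 480.0 with AMN107-IFNa, and 443 and 409.8 with AMN107-IFNg. The IFNg replicates lay above both AMN107-IFNg arrays, the DMSO and AMN107 arrays overlapped, and the mean effect was -0.30 ± 0.092, adjusted p = 0.024. This call held without IFNa replicate 1, IFNa replicate 2, AMN107 replicate 2 and AMN107-IFNg replicate 1 and was lost without any of the other arrays (adjusted p = 0.0528 to 0.0639). Cdk1, the kinase at the centre of mitotic entry, gave 2049 and 2177 with DMSO, 2136 and 1664 with IFNa, 2051 and 2022 with IFNg, 2134 and 2115 with AMN107, 2168 and 2085 with AMN107-IFNa, and 2052 and 2035 with AMN107-IFNg. Apart from IFNa replicate 2, the Cdk1 arrays of all groups lay between 2022 and 2177, and the mean effect of 0.062 ± 0.057, adjusted p = 0.396 was not called. Cdc25b, a second activating phosphatase, had 0.054 ± 0.083, adjusted p = 0.619 and was not called.

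In the spindle checkpoint and anaphase control group, 1 of 6 genes was higher and 1 lower. Cdc20, the activator of the anaphase-promoting complex, gave 1248 and 1376 with DMSO, 1288 and 1201 with IFNa, 1736 and 1740.4 with IFNg, 1912 and 1929.5 with AMN107, 1869 and 1765 with AMN107-IFNa, and 1604 and 1502 with AMN107-IFNg with its brightest probe set. The 4 DMSO and IFNa arrays were the lowest and the AMN107 and AMN107-IFNa arrays the highest, with a mean effect of 0.31 ± 0.043, adjusted p = 0.000283. A second Cdc20 probe set (1439377_x_at) moved the other way with -0.40 ± 0.074, adjusted p = 0.00177. Bub1b, the checkpoint kinase-like protein BUBR1, gave 378 and 379.6 with DMSO, 338 and 559.8 with IFNa, 246 and 309 with IFNg, 289 and 301 with AMN107, 286 and 265 with AMN107-IFNa, and 248 and 249 with AMN107-IFNg. Its DMSO arrays lay above both AMN107 arrays, the IFNg replicates overlapped with AMN107-IFNg, and the mean effect was -0.38 ± 0.11, adjusted p = 0.018, a call that was lost without IFNg replicate 2 (adjusted p = 0.0567). Bub1, Ttk, Mad2l1 and Ube2c, which encode 2 checkpoint kinases, the checkpoint protein MAD2 and a ubiquitin-conjugating enzyme of the anaphase-promoting complex, were not called, with -0.19 ± 0.10, 0.068 ± 0.10, 0.016 ± 0.040 and 0.14 ± 0.16. Ube2c gave 2806 and 2774 with DMSO, 2733 and 1139 with IFNa, 2401 and 2431 with IFNg, 2604 and 2685 with AMN107, 2561 and 2474 with AMN107-IFNa, and 2368 and 2414 with AMN107-IFNg. IFNa replicate 2 alone lay far below its replicate and all other arrays.

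None of the 3 genes of the chromosomal passenger complex, which corrects wrong attachments and guides cytokinesis, was called by its brightest probe set. The mean effects were 0.012 ± 0.13 for the Aurora B kinase gene Aurkb, -0.10 ± 0.046 for the survivin gene Birc5 and -0.077 ± 0.042 for the scaffold gene Incenp. Incenp gave 1806 and 1805 with DMSO, 1833 and 1627 with IFNa, 1455 and 1451 with IFNg, 1592 and 1669 with AMN107, 1535 and 1636 with AMN107-IFNa, and 1513 and 1476 with AMN107-IFNg. Its IFNg and AMN107-IFNg arrays were the 4 lowest. Of the other 3 Incenp probe sets, 2 dim ones (1423093_at and 1439252_at) were called higher, with 0.26 ± 0.062 and 0.49 ± 0.082.

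Of 5 centromere and kinetochore genes, 2 were lower and none higher. Cenpa, the histone H3 variant that marks the centromere, gave 1082 and 1017 with DMSO, 1043 and 751 with IFNa, 1022 and 1029 with IFNg, 771 and 803 with AMN107, 709 and 780.1 with AMN107-IFNa, and 696 and 753 with AMN107-IFNg. The 6 AMN107 arrays lay below all DMSO and IFNg arrays and below IFNa replicate 1, and IFNa replicate 2 lay among them. The mean effect was -0.39 ± 0.076, adjusted p = 0.00241. The kinetochore motor gene Cenpe, which moves chromosomes to the spindle equator, was called lower with -0.28 ± 0.090, adjusted p = 0.0274; the call held without IFNa replicate 1, IFNa replicate 2, AMN107 replicate 1 and AMN107-IFNa replicate 1 and was lost without any of the other arrays (adjusted p = 0.0517 to 0.0764). The kinetochore genes Ndc80 and Nuf2, partners in the complex that grips microtubules, and Cenpf had 0.017 ± 0.086, -0.084 ± 0.067 and -0.045 ± 0.051 and were not called by the brightest set.

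Among spindle motors and spindle assembly genes, 2 of 3 were lower. Tpx2, which activates Aurora A on the spindle, gave 386 and 373 with DMSO, 415 and 435 with IFNa, 349.8 and 368 with IFNg, 313 and 309 with AMN107, 299.9 and 322 with AMN107-IFNa, and 285 and 303 with AMN107-IFNg. All 6 AMN107 arrays lay below the DMSO, IFNa and IFNg arrays, and the mean effect was -0.33 ± 0.050, adjusted p = 0.000423. The other 3 Tpx2 probe sets were also below 0, with -0.33 ± 0.054, -0.19 ± 0.060 and -0.20 ± 0.048. Kif2c, a kinesin that removes tubulin from microtubule ends at the kinetochore, gave 592 and 603 with DMSO, 569 and 551 with IFNa, 468 and 478 with IFNg, 484 and 492 with AMN107, 431 and 463 with AMN107-IFNa, and 443 and 462 with AMN107-IFNg. The DMSO and IFNa arrays lay above the other 8, and the mean effect was -0.22 ± 0.046, adjusted p = 0.00297; this set carries the suffix x_at, which marks probes that also match other sequences, and the other 2 Kif2c sets are described below. Kif11, the motor that pushes spindle poles apart, had -0.12 ± 0.089 and was not called.

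The central spindle and cytokinesis genes were the group with the lowest median of the mean effect, -0.32, and 4 of its 6 genes were lower. By state its median was -0.18 without interferon, -0.61 with IFNa and -0.34 with IFNg, with 1, 5 and 1 of the 6 called lower. Without interferon the spindle motors and spindle assembly genes had the lower median, -0.28. Ect2, the exchange factor that activates RhoA to build the contractile ring, gave 920.0 and 814 with DMSO, 905 and 959.6 with IFNa, 899 and 909.5 with IFNg, 461 and 501 with AMN107, 395 and 538 with AMN107-IFNa, and 479 and 577 with AMN107-IFNg. The 6 AMN107 signals reached at most 577, while the lowest of the other 6 was 814. The mean effect was -0.87 ± 0.083, adjusted p = 2.65e-05, a fold of 0.547, with -0.84 (adjusted p = 0.00223) without interferon, -1.003 (0.0012) with IFNa and -0.77 (0.00602) with IFNg. Racgap1, which recruits ECT2 to the central spindle, gave 409 and 414 with DMSO, 443 and 672 with IFNa, 476 and 391 with IFNg, 346 and 351 with AMN107, 338 and 344 with AMN107-IFNa, and 311 and 335 with AMN107-IFNg. Its AMN107 arrays lay below the matched arrays in each state, with -0.44 ± 0.10, adjusted p = 0.0043 for the mean effect, while its other probe set (1451358_a_at) had -0.076 ± 0.067, adjusted p = 0.376. The Racgap1 mean joins -0.23 (adjusted p = 0.296) without interferon, -0.66 (0.0169) with IFNa and -0.41 (0.129) with IFNg. Kif20a, a kinesin of the central spindle, gave 316 and 351 with DMSO, 424 and 579 with IFNa, 435 and 337 with IFNg, 313 and 313 with AMN107, 299.5 and 314 with AMN107-IFNa, and 294 and 289 with AMN107-IFNg. The 6 AMN107 arrays lay below the other 6, and the mean effect was -0.38 ± 0.088, adjusted p = 0.00564.

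Prc1, which bundles the microtubules of the central spindle, gave 771 and 785 with DMSO, 764 and 960.4 with IFNa, 712 and 636 with IFNg, 670.2 and 673 with AMN107, 665 and 642 with AMN107-IFNa, and 604 and 622 with AMN107-IFNg. Its groups did not overlap in any state, and the mean effect was -0.24 ± 0.062, adjusted p = 0.00989. Anln, the ring protein anillin, gave 1151 and 1058 with DMSO, 1142 and 1851 with IFNa, 973 and 1039.6 with IFNg, 998 and 988 with AMN107, 935 and 1028 with AMN107-IFNa, and 921 and 976 with AMN107-IFNg. IFNa replicate 2 was far above all others, and the mean effect of -0.27 ± 0.10, adjusted p = 0.0517 was not called, although the dimmer Anln set (1439648_at) was, with -0.37 ± 0.060, adjusted p = 0.000812. Kif23, the motor partner of RACGAP1, had -0.16 ± 0.15 and was not called. Mki67, the source of the Ki-67 proliferation marker, gave 850.0 and 861 with DMSO, 869.9 and 1106 with IFNa, 834 and 737 with IFNg, 654 and 691 with AMN107, 679 and 678 with AMN107-IFNa, and 659 and 619.6 with AMN107-IFNg. All AMN107 arrays lay below the other 6, with a mean effect of -0.39 ± 0.065, adjusted p = 0.000933. Top2a, the topoisomerase that untangles chromosomes, gave 1345 and 1365 with DMSO, 1372 and 1818 with IFNa, 2088 and 1725 with IFNg, 1554 and 1556 with AMN107, 1516 and 1533 with AMN107-IFNa, and 1742 and 1737 with AMN107-IFNg. With IFNa replicate 2, the IFNg and AMN107-IFNg arrays were the highest 5, and the mean AMN107 effect of 0.0071 ± 0.071, adjusted p = 0.944 was not called. The dimmer Top2a set (1442454_at) was called higher, with a mean effect of 0.50, and this call held whichever array was left out. It gave 68.2 to 101 without AMN107 and 118 to 131 with it.

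**Figure D2:**
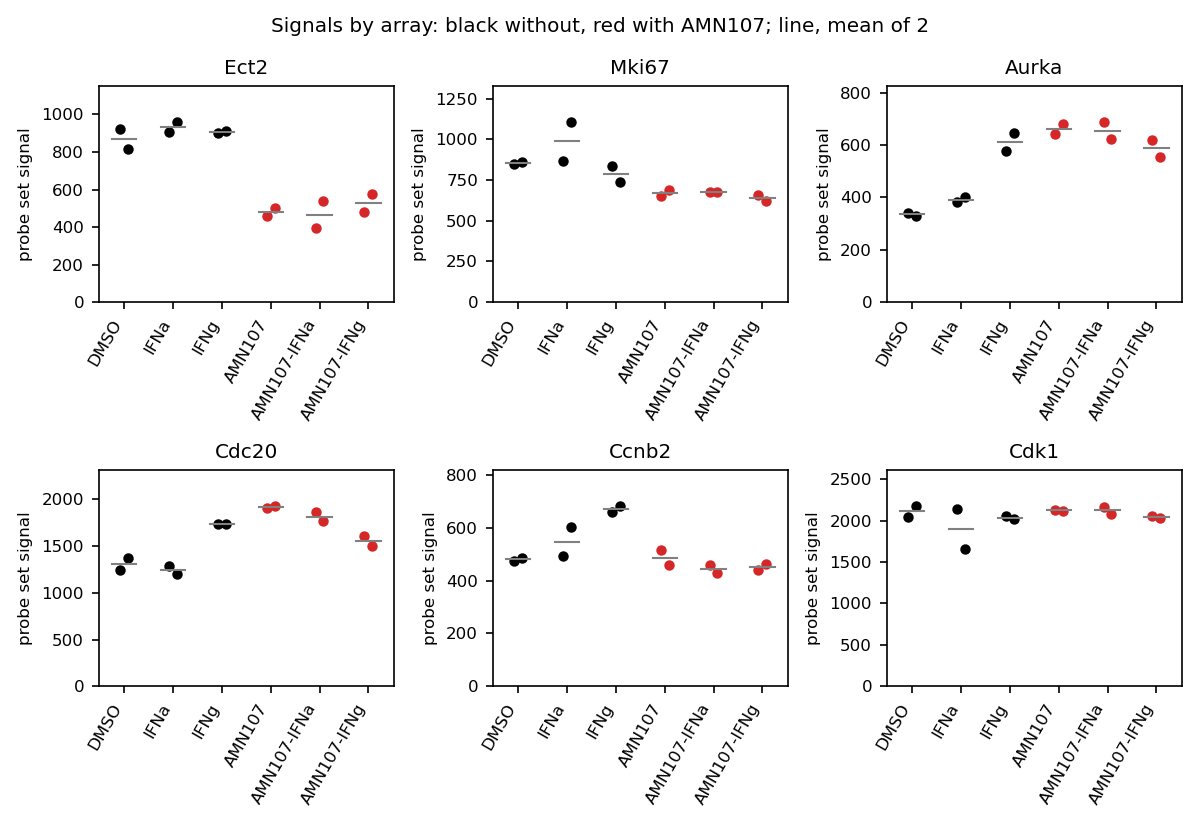
MAS5 signal (linear, arbitrary units) of selected mitosis genes on each of the 12 arrays, 1 panel per gene, with the 6 groups along the horizontal axis and points for the 2 replicates of each. Ect2 and Mki67 are lower on all AMN107 arrays than on the others, Aurka is lowest with DMSO and IFNa, and Cdk1 is level apart from IFNa replicate 2.

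Without interferon, AMN107 was compared with DMSO, and the genes moved in both directions. Of the 61 probe sets 20 were called (32.8%, against 33.1% of all): 9 higher (14.8%, against 20.7%) and 11 lower (18%, against 12.4%). The share called was thus close to that of all probe sets, and the median difference was -0.015 against 0.031 for all. The split and the sign of the median moved with the scaling, with 8 higher and 21 lower after quantile normalization and 11 higher and 4 lower after centring each array on its median (median difference 0.041). By brightest probe set, 3 of 33 genes were higher (19.9% of all genes) and 5 lower (13.0%). Aurka rose by 0.96 ± 0.10, adjusted p = 0.000125, Cdc20 by 0.55 ± 0.075, adjusted p = 0.000655 and Ccna2 by 0.41 ± 0.092, adjusted p = 0.00895. Lower were Ect2 (-0.84 ± 0.14, adjusted p = 0.00223), Cenpa (-0.41 ± 0.13, adjusted p = 0.0377), Mki67 (-0.34 ± 0.11, adjusted p = 0.0408), Kif2c (-0.29 ± 0.079, adjusted p = 0.0208) and Tpx2 (-0.28 ± 0.086, adjusted p = 0.0312). The AMN107 arrays of these 8 genes lay outside the range of the DMSO arrays, as the rule for naming them asks. Other sets of Cdc20 and Kif2c were called the other way, Cdc20 set 1439377_x_at with -0.52 and Kif2c set 1449060_at with 0.45. Both of these calls were lost without AMN107 replicate 1, that of Cdc20 also without DMSO replicate 2 and that of Kif2c without DMSO replicate 1.

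The calls of Aurka, Ect2 and Cdc20 held whichever array was left out, as did those of single dimmer sets of Cenpf, Kif23 and Tpx2, 6 of the 20 in all. The call of Ccna2 was lost without DMSO replicate 1 (adjusted p = 0.0801) and AMN107 replicate 1 (adjusted p = 0.0799). That of Cenpa held without IFNa replicate 1 and IFNa replicate 2 and was lost without any of the other arrays (adjusted p = 0.0522 to 0.179). The Mki67 call held without IFNa replicate 1, IFNa replicate 2, IFNg replicate 1 and IFNg replicate 2 and was lost without any of the other arrays (adjusted p = 0.0608 to 0.176), and it also ended without a filter on dim probe sets and after median centring (adjusted p = 0.0518 and 0.0934). The Kif2c call was lost without DMSO replicate 1 (adjusted p = 0.0865), DMSO replicate 2 (adjusted p = 0.094), AMN107 replicate 1 (adjusted p = 0.107) and AMN107 replicate 2 (adjusted p = 0.0962). The Tpx2 call was lost without DMSO replicate 1, DMSO replicate 2, AMN107 replicate 1, AMN107 replicate 2, AMN107-IFNg replicate 1 and AMN107-IFNg replicate 2 (adjusted p = 0.0501 to 0.153). Median centring ended the calls of Cenpa, Kif2c and Tpx2 too (adjusted p = 0.0568, 0.0518 and 0.0769). With both IFNa arrays out of the fit 34 of the 61 were called, against 52.3% of all probe sets, and with 1 array left out the count fell to 9 without DMSO replicate 1, 9 without DMSO replicate 2, 6 without AMN107 replicate 1 and 11 without AMN107 replicate 2.

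With IFNa in both groups, AMN107 went mostly with lower signals. Of the 61 probe sets 28 were called (45.9%, against 24.1% of all): 21 lower (34.4%, against 12.9%) and 7 higher (11.5%, against 11.2%), and the median was -0.16 against -0.00067 for all. By gene, 13 of 33 were lower (13.7% of all genes) and 3 higher (10.6%). The largest differences were Ect2 (-1.003 ± 0.14, adjusted p = 0.0012), Aurka (0.73 ± 0.10, adjusted p = 0.000884), Kif20a (-0.68 ± 0.15, adjusted p = 0.0108) and Racgap1 (-0.66 ± 0.17, adjusted p = 0.0169). Next were Cdc25c (-0.65 ± 0.14, adjusted p = 0.00785), Bub1b (-0.65 ± 0.19, adjusted p = 0.0348), Anln (-0.56 ± 0.17, adjusted p = 0.04) and Nek2 (-0.56 ± 0.16, adjusted p = 0.0293). Also lower by brightest probe set were Cenpe, Kif2c, Mki67, Plk1, Prc1 and Tpx2, and also higher Ccna2 and Cdc20. Kif2c set 1454221_a_at was called higher, with 0.45, a call that held only without IFNa replicate 1.

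These values rest on the IFNa array short of 5′ ends, which was the brighter of its pair for all of the lower genes just named except Kif2c. With IFNa replicate 2 left out the count was again 28, 7 higher and 21 lower, now against 32.2% of all probe sets, but the sizes shrank: -0.22 for Anln, -0.29 for Bub1b, -0.37 for Racgap1, -0.45 for Kif20a, -0.41 for Cdc25c, -0.25 for Nek2 and -0.96 for Ect2. In that fit the lone IFNa array is assumed to vary like the other groups. The calls of Ect2 and Aurka held whichever array was left out. The Kif20a call was lost without AMN107-IFNa replicate 1 (adjusted p = 0.0783). That of Cdc25c was lost without AMN107-IFNa replicate 1 (adjusted p = 0.06). That of Racgap1 was lost without AMN107-IFNa replicate 1 (adjusted p = 0.0961) and AMN107-IFNa replicate 2 (adjusted p = 0.074). That of Nek2 was lost without AMN107-IFNa replicate 1 (adjusted p = 0.133) and AMN107-IFNa replicate 2 (adjusted p = 0.111). The Bub1b call held without IFNa replicate 1, IFNg replicate 1 and IFNg replicate 2 and was lost without any of the other arrays (adjusted p = 0.0561 to 0.152). The Anln call held without IFNa replicate 1 and was lost without any of the other arrays (adjusted p = 0.0501 to 0.203). Weighting arrays by their quality left 6 of the 61 called and ended the calls of Kif20a, Racgap1, Bub1b, Anln and Nek2 (adjusted p = 0.0564 to 0.0886). A fit of these groups alone left 1 and ended all 8 of the calls named above (adjusted p = 0.105 to 0.292). The count fell without AMN107-IFNa replicate 1 and without AMN107-IFNa replicate 2. It rose without IFNa replicate 1, where the array short of 5′ ends alone stood for IFNa.

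With IFNg in both groups, few probe sets passed the test, while in most of the 61 the arrays with AMN107 lay below those without. Of the 61, 6 were called (9.84%, against 15.4% of all): 5 lower (8.2%, against 4.41%) and 1 higher (1.64%, against 10.9%). The 2 AMN107-IFNg arrays lay below both IFNg arrays in 37 of the 61 (60.7%, against 30.8% of all) and above them in 6 (9.84%, against 37.3%), and the median was -0.15 against 0.012. Ect2 was lower by gene with -0.77 ± 0.14, adjusted p = 0.00602, Ccnb2 with -0.56 ± 0.11, adjusted p = 0.00682 and Cenpa with -0.50 ± 0.13, adjusted p = 0.0308, 3 of 33 genes against 4.79% of all. The other calls were dimmer sets of Cdc25c (-0.46 ± 0.11), Kif11 (-0.48 ± 0.13) and Incenp (0.69 ± 0.14). The Ect2 call was lost without AMN107-IFNg replicate 1 (adjusted p = 0.0732). The Ccnb2 call was lost without IFNg replicate 2 (adjusted p = 0.0542) and AMN107-IFNg replicate 1 (adjusted p = 0.0724). The Cenpa call held without IFNa replicate 1, IFNa replicate 2, AMN107-IFNa replicate 1 and AMN107-IFNa replicate 2 and was lost without any of the other arrays (adjusted p = 0.0511 to 0.199). The count was 3 without IFNg replicate 1, 1 without IFNg replicate 2, 0 without AMN107-IFNg replicate 1 and 3 without AMN107-IFNg replicate 2. Without both IFNa arrays, which enter this comparison only through the shared estimate of spread, 26 of the 61 were called, 24 lower and 2 higher, against 12.2% and 22.4% of all probe sets. The added genes included Racgap1, Kif20a, Plk1, Mki67, Tpx2, Nek2, Prc1 and Bub1b.

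**Figure D3:**
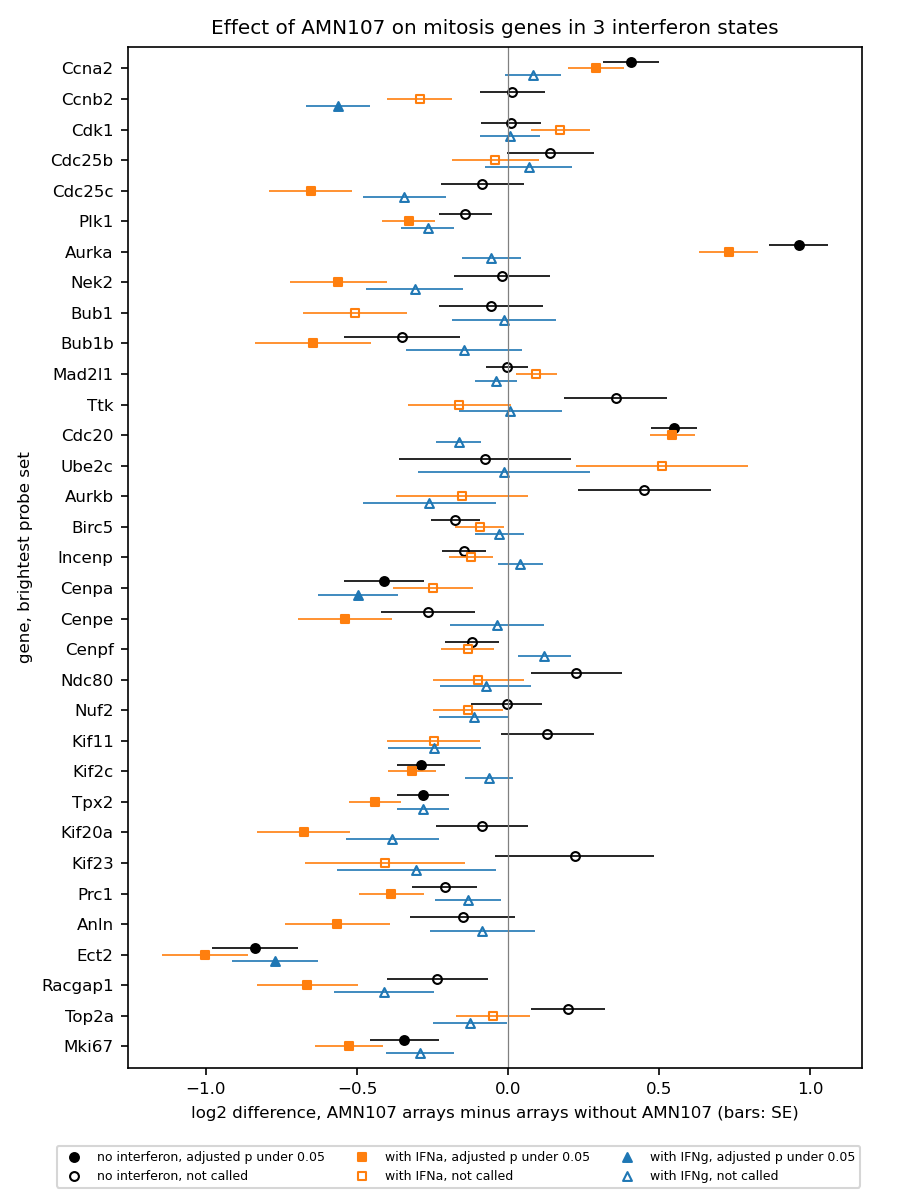
Log2 difference between AMN107 and matched control arrays (horizontal axis, log2(signal + 8.66) scale, bars are standard errors of the limma fit) of 33 mitosis genes by brightest probe set (vertical axis), for cells without interferon, with IFNa and with IFNg. Ect2 lies between -1.003 and -0.77 in the 3 states, and Aurka is above 0.7 in the first pair of states and near 0 with IFNg.

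The responses to the interferons without AMN107 share the 2 DMSO arrays with each other and with the AMN107 comparison without interferon, so they are given side by side. With IFNa 6 of the 61 probe sets were called (9.84%, against 12% of all): 4 higher (6.56%, against 8.91%) and 2 lower (3.28%, against 3.08%). The median difference was 0.18 against 0.045, and by gene only Kif20a was called higher (8.93% of all genes), with 0.56 ± 0.15, adjusted p = 0.0456. Its call held without IFNa replicate 1 and was lost without any of the other arrays (adjusted p = 0.0563 to 0.225), and it also ended after quantile normalization, without the filter, with array weights and in the groups alone (adjusted p = 0.0546 to 0.35). Left out, IFNa replicate 2 took the count to 3, 2 higher and 1 lower, against 5.82% of all probe sets. It rose without IFNa replicate 1, where the array short of 5′ ends alone stood for IFNa. The count was 0 without either DMSO array and 1 or 2 without any of the other arrays. The value for Kif20a without replicate 2 was 0.34. The other calls were dimmer sets of Aurkb (0.83 ± 0.17), Kif23 (0.54 ± 0.15), Nek2 (0.42 ± 0.10), Incenp (-0.41 ± 0.11) and Tpx2 (-0.46 ± 0.082), none of which held whichever array was left out.

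With IFNg 11 of the 61 were called (18%, against 8.98% of all): 9 higher (14.8%, against 6.65%) and 2 lower (3.28%, against 2.33%), with a median of 0.063 against -0.024 (after quantile normalization -0.024 against -0.055). By gene 4 were higher (5.73% of all genes) and 2 lower (2.53%). Aurka had 0.85 ± 0.10, adjusted p = 0.000531, a fold of 1.80, and its call held whichever array was left out. Top2a had 0.48 ± 0.12, adjusted p = 0.0369, Ccnb2 0.47 ± 0.11, adjusted p = 0.0234 and Cdc20 0.41 ± 0.075, adjusted p = 0.00869. The Ccnb2 call was lost without DMSO replicate 1 (adjusted p = 0.159), DMSO replicate 2 (adjusted p = 0.101), IFNg replicate 1 (adjusted p = 0.111) and IFNg replicate 2 (adjusted p = 0.125). The Cdc20 call was lost without DMSO replicate 1 (adjusted p = 0.106), IFNg replicate 1 (adjusted p = 0.0681) and IFNg replicate 2 (adjusted p = 0.0585). The Top2a call held without IFNa replicate 1, IFNa replicate 2 and IFNg replicate 2 and was lost without any of the other arrays (adjusted p = 0.0642 to 0.25). Kif2c was lower with -0.33 ± 0.079, adjusted p = 0.0291 and Incenp with -0.31 ± 0.074, adjusted p = 0.0277, both by x_at probe sets. The Kif2c call held without IFNa replicate 1, IFNa replicate 2, AMN107-IFNa replicate 1 and AMN107-IFNa replicate 2 and was lost without any of the other arrays (adjusted p = 0.0579 to 0.155). The Incenp call held without IFNa replicate 1, IFNa replicate 2, AMN107-IFNa replicate 1 and AMN107-IFNa replicate 2 and was lost without any of the other arrays (adjusted p = 0.0526 to 0.166); without the filter Incenp had an adjusted p of 0.0509. The IFNg arrays of these 6 genes lay outside the range of the DMSO arrays, as the rule for naming them asks. A dimmer Kif2c set (1449060_at) was called higher, a call lost without DMSO replicate 1, DMSO replicate 2 or IFNg replicate 1. The count was 4 without DMSO replicate 1, DMSO replicate 2 or IFNg replicate 1, 7 without IFNg replicate 2, and 28 without both IFNa arrays, against 28.8% of all probe sets.

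A pair of dim probe sets also rose with IFNg whichever array was left out. The Cenpf set 1458447_at, for a large kinetochore protein, gave 30.3 and 35.2 with DMSO, 39.0 and 40.8 with IFNa, 99.8 and 101 with IFNg, 88.3 and 126 with AMN107, 125 and 122 with AMN107-IFNa, and 112 and 87.2 with AMN107-IFNg. The DMSO and IFNa arrays were the lowest 4, and the IFNg difference was 1.40 ± 0.15, adjusted p = 0.000406. The brighter Cenpf set (1427161_at) had -0.26 ± 0.088 in the same comparison and was not called. The Kif23 set 1453748_a_at gave 18.9 and 21.3 with DMSO, 28.1 and 38.9 with IFNa, 55.9 and 54.2 with IFNg, 41.7 and 47.8 with AMN107, 35.0 and 49.4 with AMN107-IFNa, and 37.7 and 42.6 with AMN107-IFNg. Its IFNg arrays were the highest pair and its DMSO arrays the lowest, with 1.15 ± 0.15, adjusted p = 0.00135. The brighter Kif23 set (1455990_at) had 0.37 ± 0.26 and was not called.

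With AMN107 in both groups, neither interferon gave a call among the 61 probe sets. For IFNa 0 of 61 were called by limma (0.119% of all probe sets), 2 had an unadjusted p under 0.05 (631 of all 24363), and the differences ran from -0.38 to 0.21. The count was also 0 in every fit that left out 1 array, with quantile normalization, with median centring, with array weights and in the groups alone. For IFNg 0 of 61 were called (1.78% of all), 4 had an unadjusted p under 0.05 (1943 of all), and the smallest adjusted p was 0.0958. The 2 AMN107-IFNg arrays nevertheless lay below both AMN107 arrays in 34 of the 61 (55.7%, against 31.8% of all) and above them in 4 (6.56%, against 18.3%). Without both IFNa arrays 4 were called, against 4.83% of all: the brightest sets of Cdc20 and Nek2, a dimmer set of Cdc25c (1456077_x_at) and a dim set of Ttk (1442594_at). In the order Cdc20, Cdc25c, Nek2 and Ttk the differences were -0.31, -0.36, -0.24 and -0.43. The brightest sets of Cdc25c and Ttk had -0.15 ± 0.14 and -0.033 ± 0.17. Array weights gave 3 and the groups alone 6.

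The difference between the interferon responses with and without AMN107 was tested as an interaction. For IFNa 0 of 61 were called by limma (0.152% of all), and 11 had an unadjusted p under 0.05 (5266 of all). More were called without IFNa replicate 1, where the array short of 5′ ends alone stood for IFNa. For IFNg 4 of 61 were called (6.56%, against 1.38% of all), each lower (1.26% of all). This means that the log2 difference made by IFNg was lower with AMN107 than without, and not that it was smaller in size. Aurka had an IFNg response of 0.85 ± 0.10 without AMN107 and -0.17 ± 0.10 with it, and the interaction was -1.02 ± 0.14, adjusted p = 0.00972. Cdc20 had 0.41 ± 0.075 and -0.31 ± 0.075, with an interaction of -0.71 ± 0.11, adjusted p = 0.0127. Its set 1439377_x_at had an interaction of 0.21, while set 1439394_x_at went the way of the brightest set, and neither was called. The other calls were the dim sets of Cenpf (-1.49 ± 0.22, adjusted p = 0.0125) and Kif23 (-1.28 ± 0.22, adjusted p = 0.0211). In Aurka and Cdc20 the AMN107 arrays without interferon lay within or above the range of the IFNg arrays. Aurka, Cdc20 and this Cenpf set are among the 6 probe sets whose DMSO and IFNa arrays all lay below the other 8 (9.84% of the 61, against 5.2% of all probe sets), with 2 Kif2c sets and 1 Ccna2 set; in 12 of the 61 those 4 arrays lay above the other 8 (19.7%, against 5.2%). The LysX probe set separated the arrays in the same way, with its higher values on the DMSO and IFNa arrays. A second probe set for this control RNA gave 29.5 and 29.1 with DMSO, 41.0 and 24.2 with IFNa and 17.9 to 25.2 on the other 8, so that IFNa replicate 2 lay within the range of the others. The part of this difference in the results was not tested. The count of calls was 0 without DMSO replicate 1, AMN107 replicate 2 or AMN107-IFNg replicate 2, and 1 without either IFNg array. It was 2 without AMN107 replicate 1 or AMN107-IFNg replicate 1. Without both IFNa arrays 16 of the 61 were called, all lower, against 10.4% of all probe sets.

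**Figure D4:**
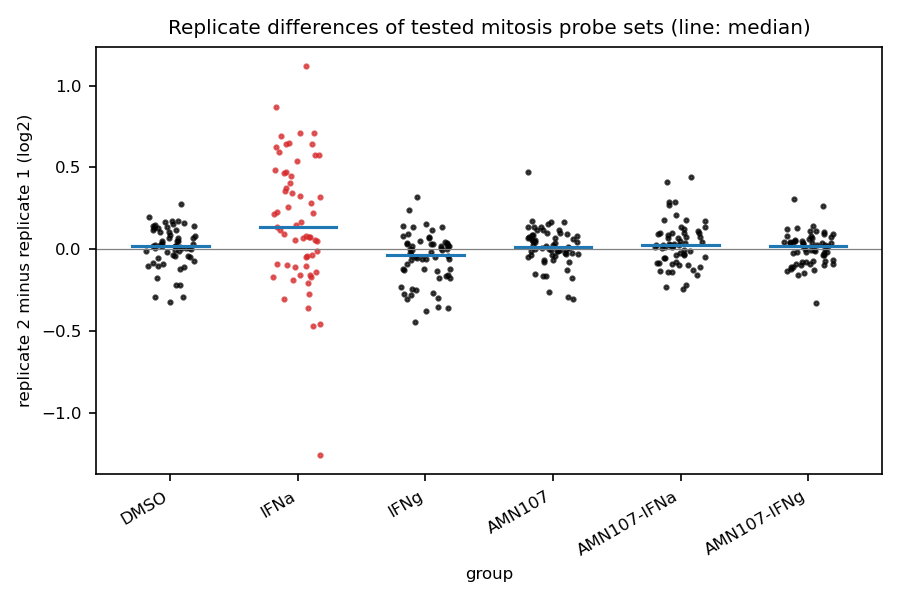
Log2 difference between replicate 2 and replicate 1 (vertical axis, log2(signal + 8.66) scale) of the 61 tested mitosis probe sets in each of the 6 groups (horizontal axis), 1 point per probe set. The IFNa points have a standard deviation of 0.392, while those of the other groups have 0.102 to 0.157.

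Probe sets of one gene read different stretches of its RNA and did not always move together. Of the 33 genes 18 had more than 1 tested probe set; in the mean AMN107 effect 10 of these had differences of both signs, and 4 (Ccna2, Cdc20, Cenpf and Kif2c) were called in both directions, of which both calls of Cdc20 held whichever array was left out. Kif2c had -0.22 ± 0.046 by its brightest set but 0.17 ± 0.060, adjusted p = 0.0403 by 1449060_at and 0.16 ± 0.078, adjusted p = 0.121 by 1454221_a_at. The Kif2c set 1449060_at gave 78.8 and 83.0 with DMSO, 90.8 and 84.5 with IFNa, 128 and 108 with IFNg, 117 and 110.0 with AMN107, 112 and 102 with AMN107-IFNa, and 104 and 98.0 with AMN107-IFNg. Its DMSO and IFNa arrays were the lowest 4, the reverse of the brightest set. Cdc20 set 1439377_x_at gave 1827 and 2036 with DMSO, 1768 and 1529.7 with IFNa, 1706 and 1418 with IFNg, 1266 and 1420.1 with AMN107, 1163 and 1421 with AMN107-IFNa, and 1198 and 1310.4 with AMN107-IFNg. Here the DMSO arrays were the highest, where in the brightest set they were among the lowest. The dim Cenpf set had 0.96 ± 0.089, adjusted p = 2.31e-05, and the 2 others -0.045 ± 0.051 and -0.16 ± 0.054, adjusted p = 0.0351. The call of Kif2c set 1449060_at held without IFNa replicate 1, IFNa replicate 2, IFNg replicate 1 and AMN107-IFNa replicate 2 and was lost without any of the other arrays (adjusted p = 0.0623 to 0.107), and that of Cenpf set 1452334_at was lost without DMSO replicate 1, DMSO replicate 2, IFNg replicate 2, AMN107 replicate 1, AMN107 replicate 2, AMN107-IFNa replicate 2 and AMN107-IFNg replicate 1 (adjusted p = 0.0669 to 0.0973). Ect2, Aurka, Plk1, Mki67, Kif20a and Cenpa had a single tested set, so that no second reading was at hand, and the 4 sets of Tpx2 and both of Prc1 were all below 0.

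**Figure D5:**
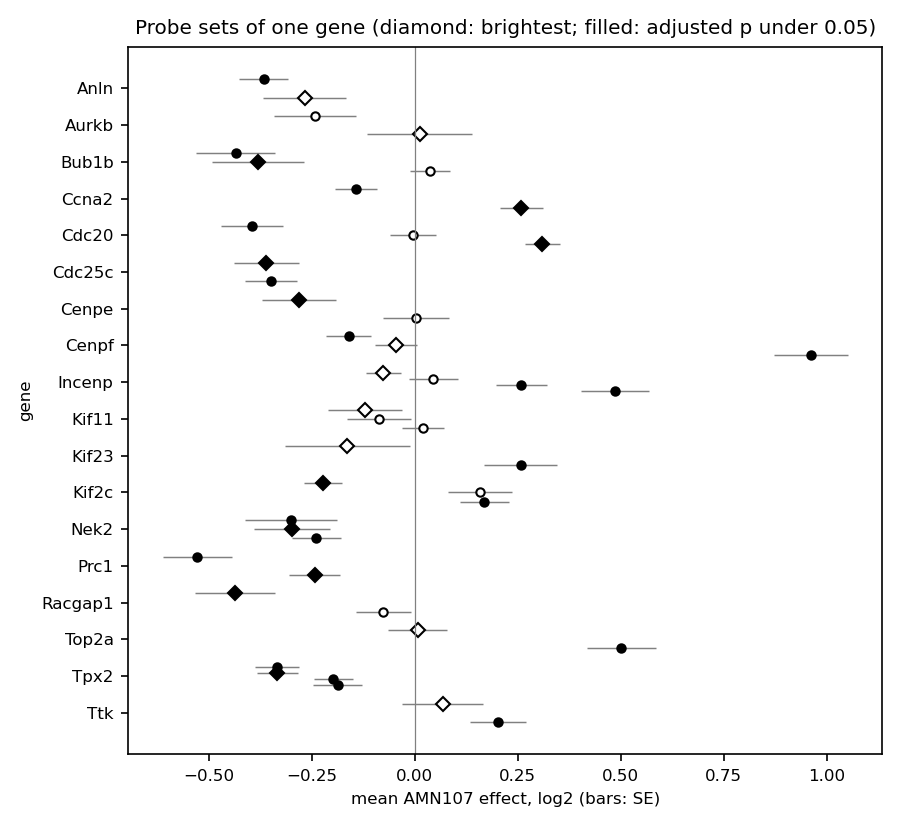
Mean AMN107 effect (horizontal axis, log2 difference on the log2(signal + 8.66) scale) of every tested probe set of the mitosis genes with more than 1 tested set (vertical axis), 1 point per probe set. Ccna2, Cdc20, Cenpf and Kif2c have called sets on both sides of 0, while the sets of Tpx2 lie on the lower side.

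The rest of the mitotic machinery was read from lists of other genes, by the brightest probe set of each and for the mean AMN107 effect. Of 11 genes of G2/M transcription 5 were lower and 1 higher, with a median of -0.11: the MuvB subunit genes Lin37 and Lin9 had 0.44 ± 0.062, adjusted p = 0.000294 and -0.43 ± 0.13, adjusted p = 0.0198 (the other Lin9 set had 0.20), and Nfyb, a subunit of the CCAAT-binding factor, had -0.23 ± 0.056, adjusted p = 0.00706. The Lin9 mean joins unlike values, -0.17 without interferon, -0.97 with IFNa and -0.14 with IFNg, and its 2 IFNa arrays gave 189 and 310. The Lin9 call was lost without DMSO replicate 1, IFNg replicate 2, AMN107 replicate 1, AMN107-IFNa replicate 1 and AMN107-IFNg replicate 1. Of 16 further entry genes 4 were lower and 1 higher (median -0.059), among them the kinases Nek7 (-0.46 ± 0.049, adjusted p = 5.56e-05) and Melk (-0.42 ± 0.086, adjusted p = 0.00302) and the CDK subunit Cks2 (-0.31 ± 0.038, adjusted p = 0.00012). The Melk mean joins -0.24 without interferon, -0.72 with IFNa and -0.29 with IFNg, and Melk was called singly only with IFNa. Motors and spindle genes had 9 of 21 lower and 1 higher (median -0.15), with Psrc1 (-0.61 ± 0.053, adjusted p = 1.43e-05), Ckap2l (-0.48 ± 0.058, adjusted p = 0.000117) and Aspm, the spindle pole protein (-0.42 ± 0.048, adjusted p = 8.18e-05); the other Psrc1 set had 0.17, and the other Aspm sets ran from -0.23 to 0.14. Condensin, cohesin and separation genes had 8 of 19 lower and 3 higher (median -0.063), with the cohesin subunit Rad21 (-0.93 ± 0.10, adjusted p = 5.17e-05; its other sets ran from -0.95 to 1.09) and the condensin genes Ncaph (-0.59 ± 0.060, adjusted p = 3.70e-05) and Ncapg2 (-0.49 ± 0.071, adjusted p = 0.000374).

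Further centromere and kinetochore genes had 8 of 26 higher and 3 lower (median 0.13), with Cenpm (1.12 ± 0.11, adjusted p = 2.75e-05), Cenpq (0.52 ± 0.060, adjusted p = 9.12e-05) and Ska1 (-0.52 ± 0.060, adjusted p = 8.64e-05). Of 12 further checkpoint and passenger genes 2 were higher and none lower (median 0.061): Kntc1, which brings dynein to the kinetochore (0.83 ± 0.057, adjusted p = 3.50e-06), and Mad1l1, the partner of MAD2 (0.20 ± 0.062, adjusted p = 0.0251). The Mad1l1 call was lost without the same 5 arrays as that of Lin9. The anaphase-promoting complex had 3 of 17 higher and 5 lower, while its median of 0.082 was above 0, with its subunits Anapc11 (0.44 ± 0.11, adjusted p = 0.0066), Anapc5 (0.36 ± 0.042, adjusted p = 9.04e-05) and Cdc23 (-0.28 ± 0.068, adjusted p = 0.00727); the other sets of Anapc11 and Cdc23 had -0.17 and 0.32. The Cdc23 mean joins -0.050 without interferon, -0.53 with IFNa and -0.27 with IFNg. In the same order the Anapc11 mean joins 0.36, 0.59 and 0.39, and the IFNa arrays of Anapc11 gave 505 and 301. Of 8 further cytokinesis genes 2 were higher and 1 lower, while the median of -0.15 was below 0: Chmp4b of the abscission machinery (0.46 ± 0.038, adjusted p = 1.09e-05), Rhoa (0.28 ± 0.041, adjusted p = 0.000421) and Septin9 (-0.43 ± 0.058, adjusted p = 0.000231). These counts stand beside 25.2% higher and 21.0% lower over all 12192 genes.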

How the data were processed

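RNA of 12 mouse embryonic fibroblast cultures was measured on 1 Affymetrix array each. The authors deposited linear signal intensities, made with MAS5 per the submitters' processing notes; the MAS5 version and scaling are not given in the sources used here. From these, log2(signal + 8.66) was taken (the pseudocount is the mean of the arrays' 25th percentiles). Probe sets above the array median on at least 2 of 12 arrays, 24363 of 45037 without the 64 controls, were tested with limma 3.58.1 in R 4.3.3 (lmFit and eBayes with trend, 1 mean per group over all 12 arrays, two-sided), with Benjamini-Hochberg adjustment and a threshold of 0.05. Probe sets were named from GEO's platform annotation (34945 with 1 gene, 932 with several, 9160 with none); 34741 were looked up in RefSeq by gene ID. MAS5 subtracts mismatch probes and scales each array, so values compare arrays and not probe sets; the number of arrays limits the precision. Replicate numbers did not pair the samples (correlation of deviations -0.14 to 0.32 over 15 pairs of groups). For each comparison, the up to 8 genes with the largest called difference by brightest probe set and arrays that do not overlap (not asked of interactions), and Mki67, Cdk1, Ccnb1 and Top2a, are given with the value on every array; for other lists the up to 3 largest called genes. Other sets are named after their values were seen. The members and lists were chosen with earlier results of these data known. The fit was tested on simulated data.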

Additional observations from a re-analysis of the deposited data

Results flagged for a closer look

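A total of 4 of the 61 probe sets (6.56%, against 1.38% of all probe sets) differed in their response to IFNg, by the interaction of AMN107 and IFNg in the limma fit. In each the log2 difference made by IFNg was lower in cells with AMN107 than in cells without. For Aurka the difference of responses was -1.02 ± 0.14, adjusted p = 0.00972; this call was lost without DMSO replicate 1 (adjusted p = 0.063), AMN107 replicate 2 (adjusted p = 0.0784) and AMN107-IFNg replicate 2 (adjusted p = 0.0772). For Cdc20 it was -0.71 ± 0.11, adjusted p = 0.0127; this call was lost without DMSO replicate 1, IFNg replicate 1, IFNg replicate 2, AMN107 replicate 1, AMN107 replicate 2, AMN107-IFNg replicate 1 and AMN107-IFNg replicate 2 (adjusted p = 0.0575 to 0.095). The dim Cenpf set 1458447_at had -1.49 ± 0.22, adjusted p = 0.0125; this call was lost without DMSO replicate 1, IFNg replicate 1, IFNg replicate 2, AMN107 replicate 2 and AMN107-IFNg replicate 2 (adjusted p = 0.0582 to 0.0859). The dim Kif23 set 1453748_a_at had -1.28 ± 0.22, adjusted p = 0.0211; this call held without IFNa replicate 1, IFNa replicate 2, AMN107-IFNa replicate 1 and AMN107-IFNa replicate 2 and was lost without any of the other arrays (adjusted p = 0.0622 to 0.13). The brighter Cenpf and Kif23 sets had 0.24 ± 0.12, adjusted p = 0.459, and -0.52 ± 0.37, adjusted p = 0.602. Cdc20 set 1439377_x_at had 0.21, set 1439394_x_at went the way of the brightest Cdc20 set, and neither was called. In Aurka, the brightest Cdc20 set and the dim Cenpf set the DMSO and IFNa arrays lay below the other 8. The LysX control separated the arrays in the same way, and its part in these calls was not tested. The Aurka and Cdc20 calls held under quantile normalization and median centring, where the count of the 61 called was again 4.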

How the results depend on the processing

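None of the 36 calls of named genes changed sign under any alternative. The median over the 61 probe sets did for AMN107 against DMSO, from -0.015 to 0.041 after median centring and 0.0067 without DMSO replicate 2, and for IFNg against DMSO, from 0.063 to -0.024 after quantile normalization. These 36 calls all held with the larger pseudocount, without a pseudocount and with 1 probe set per gene; 35 of 36 held after quantile normalization, 33 without the filter, 32 after median centring, 30 with array weights, and 19 of the 28 that could be fitted in the groups alone (the mean effect uses all 6 groups). The number of the 61 probe sets called moved by over 1.5 times as follows. With array weights it was 35 for AMN107 against DMSO, 6 with IFNa, 24 with IFNg, 0 for IFNa, 24 for IFNg, 3 for IFNg under AMN107 and 13 for the IFNg interaction. In the groups compared alone the counts were 34, 1, 24, 0, 25, 6 and 16 in the same order. Without both IFNa arrays, an alternative for the comparisons that do not use them, they were 34 for AMN107 against DMSO, 26 with IFNg, 28 for IFNg, 4 for IFNg under AMN107 and 16 for the IFNg interaction. Quantile normalization gave 13 with IFNg. IFNa against DMSO gave 2 without the filter, 2 with a filter at the 75th percentile and 12 after median centring. With 1 probe set per gene the total was 33 genes in place of 61 probe sets, so these counts do not compare directly with the others. They were 8 for AMN107 against DMSO, 16 with IFNa, 18 for the mean effect, 2 for IFNa, 6 for IFNg and 2 for the IFNg interaction. Leaving out 1 array at a time gave 6 to 34 calls for AMN107 against DMSO, 9 to 41 with IFNa, 0 to 26 with IFNg, 26 to 46 for the mean effect, 0 to 41 for IFNa, 4 to 28 for IFNg, 0 to 0 for IFNa under AMN107, 0 to 4 for IFNg under AMN107, 0 to 35 for the IFNa interaction and 0 to 16 for the IFNg interaction; the cause was not tested. In the comparisons that use the IFNa arrays, the upper ends for AMN107 with IFNa, for IFNa and for the IFNa interaction came without IFNa replicate 1. There the array short of 5′ ends alone stood for IFNa. The samples share only a number, and the replicate block, which pairs them by it, gave 7 calls for IFNa against DMSO and otherwise left each count within 1.5 times, with 36 of 36 named calls kept. The limits are 2 arrays per group, 1 array short of 5′ ends, dim probe sets near the floor of the signal, and comparisons that share the DMSO arrays.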

Other observations

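Genes of the preceding step of the cycle were read as well. Of 30 tested genes of G1/S and DNA replication 16 were lower and 5 higher in the mean AMN107 effect (median -0.18), against 21.0% and 25.2% of all genes. Ccne2, the cyclin E2 of S phase entry, had -0.78 ± 0.15, adjusted p = 0.00209, the thymidine kinase gene Tk1 -0.75 ± 0.15, adjusted p = 0.00205, and Cdc6, a loader of the replicative helicase, -0.70 ± 0.069, adjusted p = 3.36e-05. The Ccne2 mean joins -0.66 without interferon, -1.07 with IFNa and -0.59 with IFNg, and was called singly only with IFNa. In the same order Tk1 had -0.86, -0.44 and -0.96, not called with IFNa. The IFNa arrays gave 342 and 664 for Ccne2 and 862 and 405 for Tk1. Of the RefSeq windows of these genes 70.4% held a CCAAT box and 11.1% a CHR element. Among 15 cell cycle brakes and damage response genes 2 were higher and 5 lower (median -0.13): Gadd45a, a stress gene, had 1.17 ± 0.079, adjusted p = 3.41e-06, and the cyclin G genes Ccng1 and Ccng2 had -1.07 ± 0.064, adjusted p = 1.62e-06 and -0.80 ± 0.16, adjusted p = 0.00255; the other Ccng2 set had -0.098.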
